A study of Gallus gallus with 6 samples.

Results

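Periostin and 9 other genes of secreted matricellular proteins were followed through bulk RNA-seq of the regenerating chick auditory epithelium. The 10 genes, POSTN, TGFBI, SPARC, SPARCL1, MGP, SPP1, TNC, THBS1, THBS2 and FN1, were picked by gene symbol, and each symbol was found in 1 of the 25619 rows of the gene table. The picks were made with the difference between the groups already known, since POSTN, SPARCL1 and MGP were among its largest decreases. For this reason the group values of the 10 genes are given as a description and carry no p-value. Where calls among the 10 genes are listed below, nothing is read from them.

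The libraries came from explants of the cochlear duct of chicks (Gallus gallus) at post-hatch day 1, with no strain or sex given. All explants were kept for 48 h with streptomycin (SM), an antibiotic toxic to hair cells, and the titles place all libraries at day 3. The 3 SM control libraries had streptomycin alone, and the 3 SM plus BQ788 libraries also had BQ788, an antagonist of the endothelin B receptor, in the culture medium. The comparison addressed the part of that receptor in the replacement of hair cells by supporting cells. No library here came from explants without streptomycin, so the effect of streptomycin itself was not measured. The sources used here do not give the dose of BQ788, the number of explants behind a library or whether replicates came from separate animals. Any p-value therefore measures only the spread between these libraries, which may be technical.

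Matricellular proteins are secreted into the extracellular matrix, where they act mostly on how cells attach, spread, migrate and receive growth factors rather than as the main structural fibres. They bind collagens, fibronectin, growth factors and integrins, the cell surface receptors for matrix, and many are made at high level in development and wound repair. In the cochlea they are found in the connective tissue and matrix under and around the sensory epithelium as well as in the epithelium itself.

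The epithelium was lifted from the duct with thermolysin, a protease, at 500 µg/ml, and markers of several cell types were read from the libraries. Supporting cell genes were strong, with TECTB, a protein of the tectorial membrane, at 2350.5 FPKM without and 1866.4 FPKM with BQ788 (FPKM counts fragments relative to gene length and library size, so levels may be compared between genes). ATOH1, the factor needed for hair cells to form, stood at 160.9 and 153.8 FPKM. The summed level of 17 connective tissue (mesenchyme) markers was 329.3 to 407.5 FPKM in the controls and 225.9 to 458.4 FPKM with BQ788, so such markers were detected in all libraries. Reads recovered from the FPKM values came to between 15438305 and 17375656 per library.

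In the SM controls the levels of the 10 genes spanned a wide range. SPARC was the highest at 713.1 ± 49.4 FPKM (mean ± SD, n = 3 per group throughout), above 99.5% of the 11857 genes tested, and SPARCL1 was the lowest at 4.08 ± 0.461 FPKM. THBS1 was next to SPARC at 296.8 FPKM and FN1 followed at 59.5 FPKM, each with a range over the control libraries apart from those of its neighbours in the order. TGFBI, SPP1 and POSTN, at 37.6, 35.2 and 31.8 FPKM, could not be ordered beyond the spread of their libraries. MGP, THBS2 and TNC followed at 17.9, 11.2 and 8.24 FPKM, and the range of THBS2 overlapped those of MGP and TNC. With BQ788 the order from the top was SPARC, THBS1, then TGFBI, SPP1 and FN1 with overlapping ranges, then THBS2, POSTN, MGP and TNC, and SPARCL1. In that run of 4, POSTN, MGP and TNC had overlapping ranges, and THBS2 overlapped MGP but neither POSTN nor TNC. POSTN thus went from a level above 83.3% of the genes tested to a level above 37.7% of them. The summed level of the 10 genes was carried by SPARC, with 57.7% to 63.4% of it per library, and THBS1, with 23.2% to 31.0%. That sum was 1142.0, 1222.1 and 1282.2 FPKM in the controls and 977.3, 1277.2 and 1424.8 FPKM with BQ788, and the groups overlapped. Without SPARC and THBS1 the sums were 184.4, 212.6 and 219.7 FPKM in the controls and 117.7, 144.9 and 168.6 FPKM with BQ788, and did not overlap. This remainder includes POSTN, SPARCL1, MGP and FN1, each of which was itself lower in every BQ788 library. The genes were picked with the contrast known, so nothing is read from this gap.

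**Figure D1:**
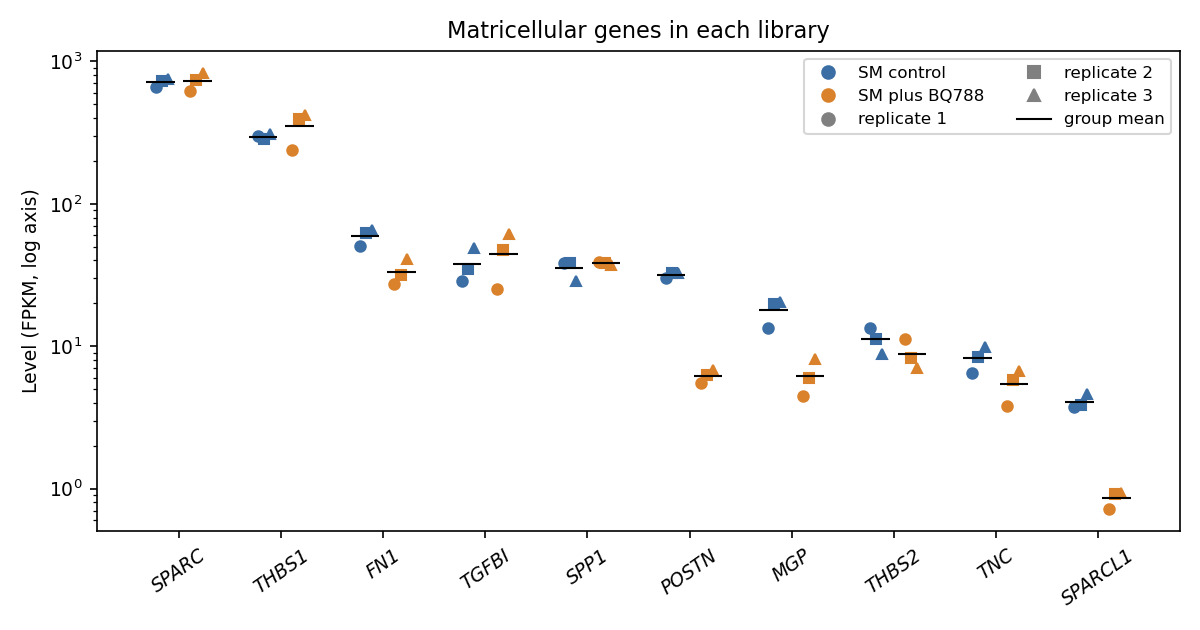
Level of each of the 10 genes in FPKM on a log axis, in order of the control mean. Each point is a library, colours mark the groups, symbols the replicate numbers and bars the group means. POSTN, SPARCL1, MGP and FN1 are lower in every BQ788 library than in every control, while SPARC, THBS1, TGFBI, SPP1, THBS2 and TNC overlap.

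POSTN encodes periostin, a fasciclin-domain protein that binds collagen, fibronectin and tenascin-C and signals through integrins. In GRCg7b it lies on the plus strand of chromosome 1 from 171879363 to 171912629. Its level was 29.9, 32.8 and 32.7 FPKM in SM control replicates 1, 2 and 3 and 5.48, 6.29 and 6.76 FPKM in BQ788 replicates 1, 2 and 3. The controls lay within a narrow band, and the lowest of them was 4.42 times the highest BQ788 library. The means were 31.8 ± 1.64 and 6.18 ± 0.651 FPKM, a level 5.15 times as high in the controls, and the difference was -2.19 (SE 0.09) on the log2(FPKM + 1) scale, which is used for all differences here as BQ788 minus control. Between 374 and 2040 reads stood behind each value. In bulk libraries, fewer cells that express a gene and less of its RNA per cell cannot be told apart.

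TGFBI, the other fasciclin-domain gene of the set, encodes a collagen-binding adhesion protein induced by TGF-beta and lies on chromosome 13 from 14773378 to 14794105 on the minus strand. It was at 28.5, 35.1 and 49.3 FPKM in the controls and 25.4, 47.6 and 60.9 FPKM with BQ788. Replicate 1 was the lowest and replicate 3 the highest of either group, and the groups overlapped over most of their range. The means were 37.6 ± 10.6 and 44.6 ± 17.9 FPKM, and the difference of 0.19 (SE 0.34) was smaller than its error. Among the 10 genes TGFBI had the widest spread between replicates, with a pooled SD of 0.53 on the log2 scale, wider than that of 97.0% of the genes tested.

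SPARC (osteonectin) is a collagen- and calcium-binding protein of basement membranes and connective tissue. The gene is on chromosome 13 from 12522360 to 12530589 on the plus strand. It was at 658.4, 726.5 and 754.4 FPKM in the controls and 619.7, 736.5 and 834.4 FPKM with BQ788. The control libraries lay inside the range of the BQ788 libraries, and the difference was 0.03 (SE 0.12). A row described as a copy of SPARC, LOC121107687, spans 1115 bases of chromosome 1 and has a gene length of 1115 bases, so it holds no annotated intron, whereas SPARC spans 8230 bases. The copy was at 422.7 ± 47.6 FPKM without and 381.0 ± 41.1 FPKM with BQ788, a difference of -0.15 (SE 0.12, limma adjusted p = 0.491). The division of reads between the rows is not given in the labels, so both levels are uncertain. Summed over both rows, the difference was -0.04.

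SPARCL1 (hevin) is a secreted relative of SPARC with the same collagen- and calcium-binding module, known in the brain for its part in synapse formation. It lies on chromosome 4 from 45260285 to 45274222. Its level was 3.73, 3.89 and 4.60 FPKM in the controls and 0.713, 0.918 and 0.932 FPKM with BQ788. Every BQ788 library was under 1 FPKM, and the lowest control was 4.00 times the highest of them. The means of 4.08 ± 0.461 and 0.855 ± 0.123 FPKM differed 4.77-fold, and the difference of -1.45 (SE 0.10) on the log2(FPKM + 1) scale understates this because the level is low. SPARCL1 rested on 35 to 43 reads per BQ788 library and 169 to 202 reads per control. It passed the filter of a mean of at least 1 FPKM through its controls alone.

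MGP encodes matrix Gla protein, a small vitamin K-dependent inhibitor of calcification made by cartilage and vascular smooth muscle. It lies on chromosome 1 from 48070036 to 48075358. The values were 13.5, 19.8 and 20.5 FPKM in the controls and 4.43, 5.94 and 8.08 FPKM with BQ788. Replicate 1 was the lowest of either group, and the lowest control was still 1.67 times the highest BQ788 library. The means were 17.9 ± 3.85 and 6.15 ± 1.83 FPKM, a 2.91-fold level in the controls and a difference of -1.41 (SE 0.23). Each MGP value rested on 54 to 223 reads, and the fewest give a counting error of 13.6%.

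SPP1 encodes osteopontin, a phosphorylated integrin- and CD44-binding protein of bone matrix and of activated immune cells. It is located on chromosome 4 from 45233954 to 45237015, in the same cluster as SPARCL1. The controls were at 38.5, 38.6 and 28.6 FPKM and the BQ788 libraries at 39.3, 38.3 and 37.3 FPKM. Control replicate 3 was low, the other controls lay among the BQ788 libraries, and the difference was 0.13 (SE 0.12). Leaving out that control brought the difference to -0.01.

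TNC encodes tenascin-C, a large hexameric glycoprotein that counters the adhesion of cells to fibronectin and is induced in wounds. It lies on chromosome 17 from 3320835 to 3419298. Its level was 6.49, 8.40 and 9.83 FPKM in the controls and 3.78, 5.83 and 6.64 FPKM with BQ788. The highest BQ788 library was just above the lowest control, so the groups overlapped. The means were 8.24 ± 1.68 and 5.42 ± 1.48 FPKM, a difference of -0.54 (SE 0.21).

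The thrombospondins are calcium-binding multimers; THBS1 activates latent TGF-beta and binds CD36 and CD47. THBS1, on chromosome 5 from 29117435 to 29133073, was at 299.2, 283.0 and 308.1 FPKM in the controls and 239.9, 395.8 and 421.8 FPKM with BQ788. The controls were close together and lay between BQ788 replicate 1, the lowest library, and the other 2 BQ788 libraries. The difference was 0.21 (SE 0.21), and without BQ788 replicate 1 it was 0.46. THBS2, on chromosome 3 from 41028074 to 41060583, was at 13.5, 11.2 and 8.86 FPKM in the controls and 11.3, 8.29 and 6.998 FPKM with BQ788. The groups overlapped, and the difference was -0.31 (SE 0.20). In THBS2 replicate 1 was the highest of each group and replicate 3 the lowest, the opposite order to most of the 10 genes.

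FN1 encodes fibronectin, the adhesive glycoprotein to which periostin, tenascin-C and several integrins bind. The gene lies on chromosome 7 from 4440758 to 4490944 on the minus strand. It was at 50.3, 62.8 and 65.3 FPKM in the controls and 27.3, 31.7 and 41.0 FPKM with BQ788. All BQ788 libraries were below all controls, with the lowest control 1.23 times the highest BQ788 library. The means of 59.5 ± 8.04 and 33.4 ± 6.999 FPKM gave a 1.78-fold level in the controls and a difference of -0.83 (SE 0.16). FN1 had 4520 to 9669 reads per library.

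**Figure D2:**
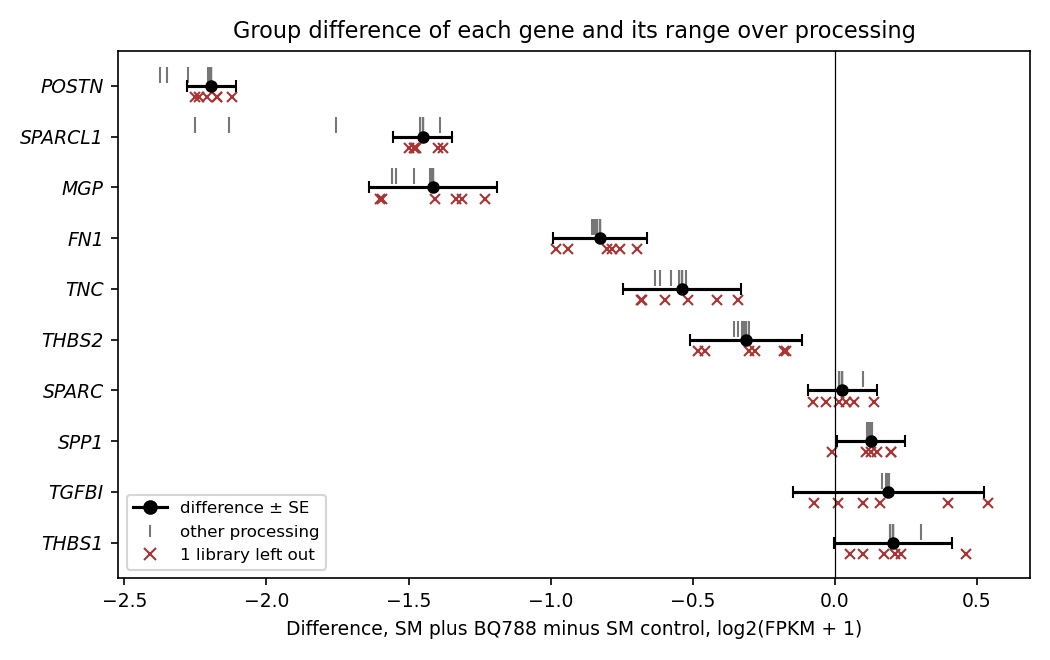
Difference of each of the 10 genes, BQ788 minus control, in log2(FPKM + 1). Circles with bars are the difference and its SE, grey ticks the values under other processing, and red crosses the values with 1 library left out. POSTN stays between -2.38 and -2.12, while TGFBI runs from -0.07 to 0.54 when single libraries are left out.

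Of the 10 genes, 4 had every BQ788 library below every control and 0 had the reverse, where 14.1% of the genes tested were lower and 15.2% higher in this way. With limma over all 11857 genes, POSTN, SPARCL1 and MGP, 3 of the 10, were called lower and 0 were called higher at an adjusted p under 0.05. Over all genes, 266 (2.24%) were called lower and 89 (0.751%) higher. By limma voom on recovered reads, which also called FN1, the members' counts were 4 lower and 0 higher, beside 1.53% and 0.489% of all genes tested. At an unadjusted p under 0.05 they were 5 and 0, beside 11.9% and 10.8% of all genes. Because the genes were picked with this contrast known, nothing is read from these counts. Differences were below 0 in 6 genes and above 0 in 4, with a median of -0.42 beside 0.02 over all genes tested.

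These calls moved with the libraries used. POSTN passed with any single library left out, SPARCL1 only without BQ788 replicate 1 or BQ788 replicate 3, and MGP only without BQ788 replicate 1, where FN1 and THBS1 passed too. Over all genes tested, 1 was called with any 1 control or BQ788 replicate 2 left out. The number was 21 without BQ788 replicate 3 and 1311 (11.1%) without BQ788 replicate 1. Since the genes were picked with this contrast known, this describes the libraries and is no separate support for a gene.

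Within groups, the 10 genes differed in how tightly the replicates held. The pooled SD on the log2(FPKM + 1) scale was 0.11 for both POSTN and SPARCL1, close to the median of 0.118 over all genes tested. SPARC and SPP1 were at 0.17 and FN1 at 0.25. THBS2, TNC, THBS1 and MGP were at 0.30, 0.31, 0.32 and 0.34, wider than 89.6% to 92.2% of the genes tested.

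Libraries deviated in the same direction in many of the genes. BQ788 replicate 1 was the lowest library of its group in 8 of the 10 genes, compared with 41.4% of all genes tested, and BQ788 replicate 3 the highest in 8, compared with 36.5%. SM control replicate 1 was the lowest control in 7 genes and SM control replicate 3 the highest in 7, compared with 33.5% and 37.4% of all genes. In THBS2 and SPP1 replicate 3 was instead the lowest of both groups.

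Markers of other cells moved across the same libraries. The summed mesenchyme markers were 407.5, 364.3 and 329.3 FPKM in the controls and 458.4, 225.9 and 282.4 FPKM with BQ788. In BQ788 replicate 1, 15 of the 17 mesenchyme markers were at the highest level of their group, as were 39.5% of all genes tested. Among the 15 was DCN, a collagen-binding proteoglycan, at 44.8 FPKM against 13.4 and 19.3 FPKM in BQ788 replicates 2 and 3. The mesenchyme sums of the groups overlapped, and 0 of the 15 markers tested were called by limma or limma voom. At an unadjusted p under 0.05, 2 were lower, as were 11.9% of all genes. COL6A2 (10.8 and 6.35 FPKM) and COL3A1 (12.5 and 6.99 FPKM) were lower without overlap (14.1% of all genes), and the other tested markers overlapped. DPT and PI15, both below 1 FPKM, were lower without overlap too. Differences were below 0 in 10 of the 15 (46.5% of all genes) and above 0 in 5. Supporting cell markers summed to 3855.3, 3937.6 and 4827.1 FPKM in the controls and 3051.3, 3684.8 and 4278.9 FPKM with BQ788, lowest in replicate 1 and highest in replicate 3 of each group. The sum came mostly from TECTB and GJB6. Of the 11 markers, 6 were at their lowest BQ788 level in replicate 1 (41.4% of all genes tested). SOX2 and BMP4 were among 3 at their highest (39.5% of all genes tested). By limma 1 of the 11, FGFR3, was called lower and 0 higher (2.24% and 0.751% of all genes), and limma voom called 2 lower (1.53%). FGFR3 and TECTA were lower and LFNG higher without overlap (14.1% and 15.2% of all genes).

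Other marker sums were lower in every BQ788 library, as POSTN, SPARCL1, MGP and FN1 were. The 11 cartilage markers summed to 184.7 to 236.3 FPKM in the controls and 132.8 to 165.1 FPKM with BQ788. Of 7 tested, COL9A1 and COL9A2, chains of collagen IX, were called lower by limma (differences of -1.11 and -0.98), where 2.24% of all genes were. COL2A1, the main cartilage collagen, was at 57.0 and 46.4 FPKM, COL11A1 at 33.2 and 31.9 FPKM and LECT1 at 18.7 and 18.6 FPKM in the controls and with BQ788, and all overlapped between groups. MATN3 (1.76 and 1.08 FPKM) overlapped too, as did EPYC, which had a higher mean with BQ788 (2.79 and 5.84 FPKM, with BQ788 replicate 1 at 12.3 FPKM). Limma voom called 2 of the 7 lower (1.53% of all genes), and 3 were lower at an unadjusted p under 0.05 (11.9% of all genes). ACAN, MATN1, HAPLN1 and SNORC were below 1 FPKM in the mean of either group. HAPLN1 (0.694 and 0.239 FPKM) was lower without overlap (14.1% of all genes tested), while ACAN, MATN1 and SNORC overlapped. Smooth muscle and pericyte markers (7 genes) summed to 30.8 to 34.5 and 19.6 to 28.6 FPKM, with 0 of 6 tested called by limma or limma voom and 2 lower at an unadjusted p under 0.05 (11.9% of all genes). ACTA2 (2.62 and 0.735 FPKM), MYH11 and MYLK, 3 of the 6, were lower without overlap (14.1% of all genes). CSPG4, RGS5 and TAGLN overlapped. Endothelial markers (9 genes) were at 34.4 to 37.7 and 25.6 to 32.3 FPKM, a sum carried by EGFL7 (23.1 and 18.0 FPKM) and PECAM1 (10.4 and 7.43 FPKM). EGFL7 and PECAM1, the 2 tested, were lower without overlap (14.1% of all genes) and at an unadjusted p under 0.05 (11.9%). Of these 2, 0 were called by limma or limma voom. The means of the other 7, which did not reach the filter, were higher with BQ788. CDH5 (0.190 and 0.403 FPKM) and VWF (0.169 and 0.262 FPKM) were higher without overlap (15.2% of all genes tested). The sums of melanocyte markers (7 genes) were 11.6 to 13.1 and 6.79 to 9.07 FPKM, mostly from OCA2 (6.98 and 4.41 FPKM) and MLANA (2.83 and 0.893 FPKM). OCA2 and MLANA were lower without overlap (14.1% of all genes tested), and MITF (1.15 and 1.32 FPKM) was higher without overlap (15.2%). PMEL (1.08 and 1.02 FPKM) overlapped, and TYR, TYRP1 and DCT were below 1 FPKM. Of 4 melanocyte markers tested 0 were called by limma or limma voom, and 2 were lower at an unadjusted p under 0.05 (11.9% of all genes). SLC45A2, a pigment cell transporter outside this list, was called lower (8.13 and 2.34 FPKM, difference -1.46, limma adjusted p = 0.0138). Other pigment genes outside the list were not counted. Schwann cell and neuron markers (11 genes) were at 179.8 to 191.8 and 143.7 to 176.4 FPKM, mostly from SOX10 at 119.1 and 112.2 FPKM, which overlapped. Of 8 tested, the neuronal genes GAP43, NEFM and NEFL, 3 in all, were called lower by limma, where 2.24% of all genes were. Hair cell markers (13 genes) summed to 895.4 to 1215.3 and 834.4 to 1141.0 FPKM, mostly CALB1 and ATOH1, and the sums overlapped. Of 12 hair cell markers tested 0 were called by limma and 1 was lower by limma voom, but 10 had a difference below 0 and 7 were lower at an unadjusted p under 0.05 (11.9% of all genes). ESPN, LHFPL5, BARHL1, POU4F3 and MYO7A, 5 of the 12, were lower without overlap (14.1% of all genes). Blood and immune markers (11 genes) at 43.3 to 64.2 and 41.7 to 60.3 FPKM overlapped between groups. The part of any of these cells in the levels of the 10 genes was not tested.

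**Figure D3:**
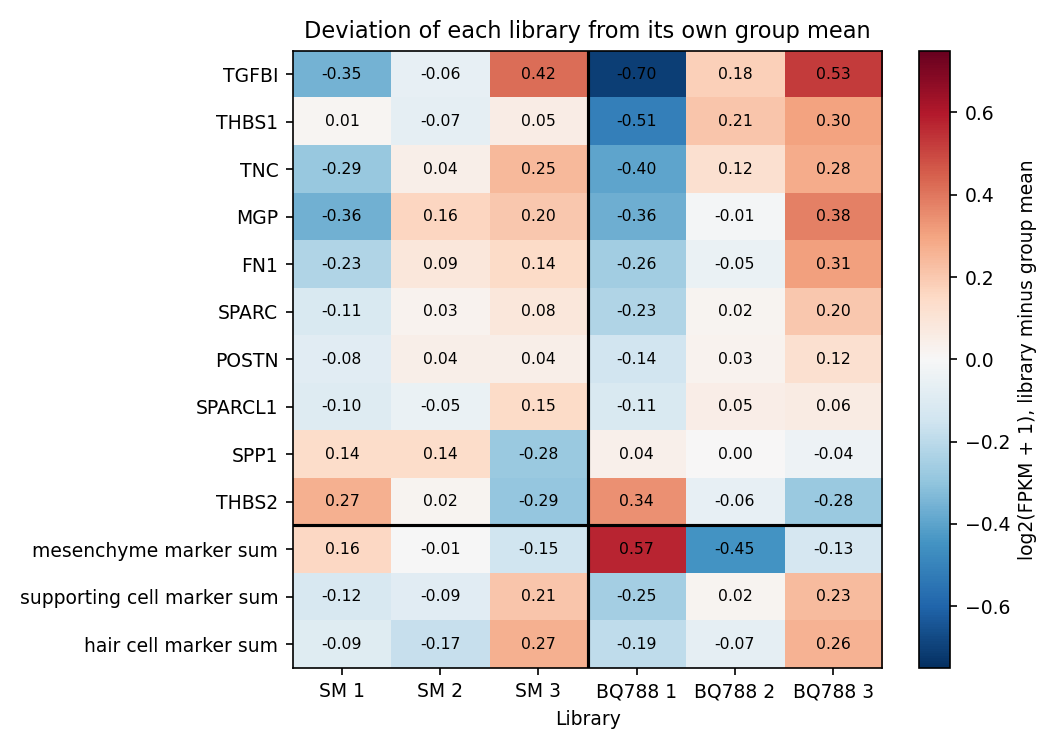
Deviation of each library from its own group mean in log2(FPKM + 1), for the 10 genes and, below the line, for the summed mesenchyme, supporting cell and hair cell markers. Red is above and blue below the group mean. BQ788 replicate 1 is below its group mean in 8 of the 10 genes and 0.57 above it in the mesenchyme sum.

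The other genes of the matricellular system were divided into related secreted proteins, receptors, modifying enzymes and regulators. The lists were chosen with earlier results of these data known and do not hold every such gene, so nothing is read from the counts below. They held 86 genes of the table, of which 71 reached a mean of 1 FPKM. Of these 5 were called lower by limma (7.04%, compared with 2.24% of all genes tested) and 0 were called higher. Differences were below 0 in 38 of them and above 0 in 33, where 46.5% of all genes tested were below 0. By limma voom 4 were lower and 1 higher (1.53% and 0.489% of all genes), and at an unadjusted p under 0.05 the counts were 15 and 4 (11.9% and 10.8% of all genes). The count changed with the libraries used, as it did over all genes. With any single library other than BQ788 replicate 1 left out, 0 of the 71 were called, beside 1 to 21 of all genes tested. Without BQ788 replicate 1 the count was 14, beside 1311 (11.1%) of all genes tested.

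Among the related secreted proteins 14 of 26 genes were tested and 2 were called lower, with a median difference of -0.08. SMOC2, which carries the SPARC calcium-binding module and is found in basement membranes, was at 79.8, 81.5 and 67.4 FPKM in the controls and 52.2, 51.1 and 46.7 FPKM with BQ788. Every BQ788 library was below every control, and SMOC2 fell by 0.60 (SE 0.09, limma adjusted p = 0.0332). WISP1, a CCN-family protein known as a target of WNT signalling, was at 23.4, 26.8 and 27.3 FPKM in the controls and 14.9, 18.6 and 13.2 FPKM with BQ788. It fell by 0.70 (SE 0.13, adjusted p = 0.0439), again without overlap. The call of WISP1 was lost under limma voom, plain totals, eBayes without trend and no filter, and that of SMOC2 under plain totals and no filter.

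Receptors for matricellular proteins, mostly integrin chains and syndecans, had 18 of 19 genes tested and 2 called lower, with a median of -0.18. ITGA8, the integrin alpha 8 chain, whose dimer with beta 1 binds fibronectin, tenascin-C and osteopontin, was at 60.9, 58.8 and 67.3 FPKM in the controls. With BQ788 it was at 41.9, 45.0 and 39.8 FPKM, below all controls, and fell by 0.55 (SE 0.08, adjusted p = 0.0294). SDC3, a heparan sulphate proteoglycan of the cell surface, fell by 0.39 (SE 0.06, adjusted p = 0.0384) from 33.8 ± 0.933 to 25.6 ± 1.49 FPKM. The calls of ITGA8 and SDC3 were lost with no filter. At an unadjusted p under 0.05, 7 receptor genes were lower and 1 was higher, beside 11.9% and 10.8% of all genes. The higher gene was CD47, the thrombospondin receptor, at 49.4 ± 3.47 and 68.6 ± 7.13 FPKM (difference 0.46, adjusted p = 0.0556), which limma voom called; it is named because of that call.

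Of the enzymes and chaperones listed as modifying the matrix, 16 of 17 genes were tested and 1 was called lower, with a median of 0.03. The list was not complete. P4HA3 (9.83 and 4.81 FPKM, difference -0.90, limma adjusted p = 0.0244) and FKBP10 (19.8 and 12.3 FPKM, difference -0.66, adjusted p = 0.0415) were outside it and were called lower. Genes of either direction outside the list were not counted. SERPINH1, the collagen chaperone HSP47, fell by 0.41 (SE 0.08, adjusted p = 0.0453) from 144.9 ± 7.64 to 108.9 ± 8.06 FPKM. Its call was lost under limma voom, quantile normalization, plain totals, eBayes without trend and no filter. LOX, the lysyl oxidase that crosslinks collagen and that periostin helps to activate, was at 45.8, 52.9 and 54.0 FPKM in the controls and 50.7, 81.1 and 69.5 FPKM with BQ788, which overlapped (difference 0.37, SE 0.17, adjusted p = 0.254).

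TGF-beta ligands, receptors and SMADs, the YAP and TEAD factors and mesenchymal transcription factors are known regulators of POSTN, TGFBI, TNC and FN1. Of 24 such genes listed here 23 were tested and 0 were called by limma or by limma voom. This list was not complete either. SMAD4, a SMAD outside it, was called lower without overlap (7.98 and 2.72 FPKM, difference -1.28, limma adjusted p = 0.0183). Other regulators outside the list, of either direction, were not counted. At an unadjusted p under 0.05, 2 of the listed genes were lower and 3 higher, beside 11.9% and 10.8% of all genes. The median of the listed genes was 0.02. TGFB1 was at 21.6, 24.7 and 24.3 FPKM in the controls and 19.3, 16.9 and 17.9 FPKM with BQ788 (difference -0.37, SE 0.08, adjusted p = 0.0634). SMAD7, the inhibitory SMAD, was at 7.14 ± 0.233 and 5.70 ± 0.262 FPKM (difference -0.28, SE 0.07, adjusted p = 0.0808). TGFB1, SMAD7 and TEAD4, 3 of the listed regulators, were lower without overlap (14.1% of all genes). The 5 listed regulators SMAD3, SMAD2, TEAD1, SNAI1 and TGFBR1 were higher without overlap (15.2% of all genes). Among them SMAD3, which carries the TGF-beta signal to the nucleus, was at 5.18 and 6.54 FPKM (difference 0.28, SE 0.09, adjusted p = 0.139).

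**Figure D4:**
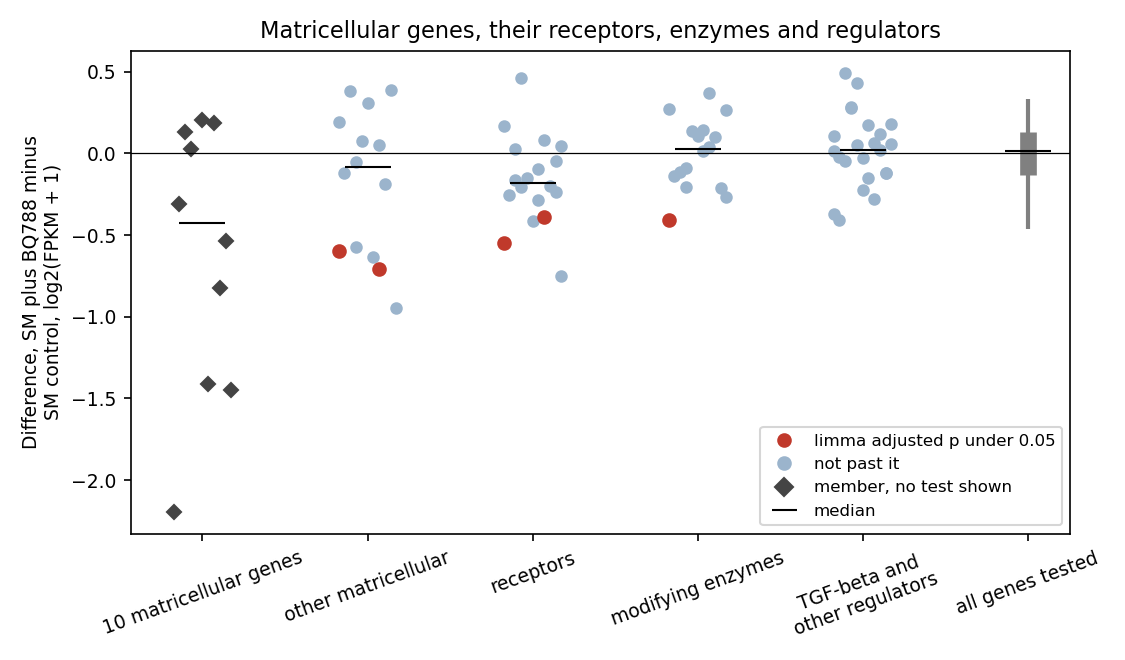
Differences, BQ788 minus control, in log2(FPKM + 1), of the 10 genes and of the 4 groups of related genes. Points are genes, red those past an adjusted p of 0.05 in limma, and bars the group medians. For all genes tested, the thick grey bar runs from the 25th to the 75th percentile and the thin one from the 5th to the 95th. Apart from the 10 genes, the group medians lie between -0.18 and 0.03.

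Relatives were also sought by protein domain. In the table's descriptions 8 genes have the SPARC calcium-binding domain. Beside SPARC and SPARCL1, 5 of them were tested, of which SMOC2 was called lower by limma and 0 were called higher. SMOC1, the closest relative of SMOC2, was at 7.92 and 5.02 FPKM (difference -0.57, adjusted p = 0.0618), and limma voom called it lower. COMP and THBS4, which share the C-terminal domain of THBS1 and THBS2, were below a mean of 1 FPKM.

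Profiles over the 6 libraries were compared among 10837 genes with a symbol, and genes named only by a LOC number were left out. Of these genes the nearest to POSTN were COL9A3, SPARCL1 and SLC45A2. Their root mean square distances were 0.37, 0.38 and 0.40 on the log2(FPKM + 1) scale. COL9A3, a chain of collagen IX, was at 87.4, 78.9 and 101.7 FPKM in the controls and 32.2, 25.3 and 32.8 FPKM with BQ788. Even this nearest profile had a smaller difference, -1.54, than POSTN. For SPARCL1 the nearest were CCDC180, SLC45A2 and C1QL4 at 0.15 to 0.16, for MGP they were TSPAN1, HPGDS and GJB1 at 0.08 to 0.19, and for FN1 they were ITGB3, FSCN2 and CALML4 at 0.08 to 0.09. ITGB3, an integrin chain in a receptor for fibronectin, was at 5.66, 7.20 and 6.74 FPKM in the controls and 2.57, 3.14 and 4.98 FPKM with BQ788. Among the 10 genes themselves the closest pairs were TNC with FN1 and SPARC with THBS1, both at 0.18, and SPARCL1 with MGP at 0.22. These distances describe 6 libraries in 2 groups and were not tested.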

How the data were processed

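Total RNA, 400 ng per library, was prepared with NEBNext Ultra II, per the labels' protocols. The authors deposited FPKM values per gene in 1 table with gene coordinates and lengths. The build was GRCg7b and reads passed through fastp, per the submitters' processing notes. Aligner and counter: not given in the sources used here. Gene identifiers of 25616 rows matched the RefSeq gene table and 3 did not.

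Multiplied by the gene length the authors deposited, FPKM values were whole multiples of 1 step per library (tolerance 0.01 of a read), which gave reads per gene. A floor of 3 reads equals 0.169 to 0.193 FPKM in a gene of 1 kb. This and the counting errors cover counting error only. Replicates of a group differed by more than sampling noise (chi-square per degree of freedom 6.00 to 55.6). The largest values were those of BQ788 replicate 1 with BQ788 replicate 2 (32.7) and with BQ788 replicate 3 (55.6). All 6 libraries were kept, and these values are no test of library quality.

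Genes with a mean of 1 FPKM or more entered a linear model of group on log2(FPKM + 1), fitted with limma 3.58.1 (R 4.3.3) and eBayes with trend. P-values are two-sided and were adjusted by Benjamini-Hochberg, with calls at 0.05. The fit was tested on simulated data. Alternatives were a pseudocount of 0.1 or 0.5, a mean of 5 FPKM or more or no filter, scaling by median of ratios, quantiles or plain totals, a replicate block, eBayes without trend or robust, limma voom on recovered reads, and leaving out each library. Summing SPARC with its copy was added after the values were seen.

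The 10 genes and all lists were chosen with earlier results of these data known. The text names the 10 genes, from each list every gene past the threshold and the 2 with the smallest p, and the 3 nearest profiles of POSTN and of the 3 others with the largest difference. CD47, SMOC1, SMAD4, P4HA3, FKBP10, SMAD3 and the other regulators without overlap, neighbouring genes, genes sharing a domain and the markers were named outside this rule. No sequence is shown.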

Additional observations from a re-analysis of the deposited data

How the results depend on the processing

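The direction of all 10 genes was the same under the 11 other ways of processing, except that SPARC summed with its copy, chosen after seeing the data, came to -0.04. POSTN differed by -2.38 to -2.19 under these and by -2.25 to -2.12 with single libraries left out. SPARCL1 moved to -2.25 with limma voom and to -2.13 and -1.76 at pseudocounts of 0.1 and 0.5, and was not tested at a mean of at least 5 FPKM. Leaving out single libraries turned the sign of SPARC (-0.08 to 0.14), SPP1 (-0.01 to 0.20) and TGFBI (-0.07 to 0.54), none of which was called. Genes called over the whole table, 355 with all libraries, were 68 with no filter and 220 with plain totals, and ranged from 1 to 1311 with single libraries left out. Limma voom called 239. Of the other genes listed for the matricellular system 5 were called. The count was 0 with no filter, 3 with plain totals, 3 with eBayes without trend and 0 to 14 with single libraries left out. Of the 10 genes 3 were called, 2 with no filter (MGP was lost), 4 with quantile normalization, plain totals or limma voom (FN1 was added), and 1 to 5 with single libraries left out. The causes were not tested. Replicate numbers were not taken as pairs, since the titles do not say that they mark pairs. Same-numbered libraries' deviations correlated at 0.4999, 0.0744 and 0.569, and those of differently numbered libraries at -0.530 to 0.127. With the replicate number as a block 749 genes were called over the whole table and 5 of the 10, TNC and FN1 among them. Depth limited SPARCL1 most, with a counting error of 16.9% in its lowest library. Only 3 libraries per group limit every value here.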

Other observations

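SPP1 and SPARCL1 lie in 1 cluster on chromosome 4 with other genes of mineralised tissue, and they differed in level and in their group values. Between them MEPE and IBSP, which encode bone matrix proteins, were at 0 FPKM in all libraries, and DMP1, a dentin and bone protein, had means of 0.0558 FPKM without and 0.0711 FPKM with BQ788. PKD2, 219 bases from SPP1, was at 53.5 and 43.3 FPKM (difference -0.30, limma adjusted p = 0.109). PRKG2, a cGMP-dependent kinase and the next gene beyond PKD2, fell from 3.71 to 2.25 FPKM (difference -0.54, adjusted p = 0.0361); it overlaps the end of PKD2 on the other strand, so reads there cannot be told apart without strand. NUDT9, 817 bases beyond SPARCL1, was at 4.31 and 4.30 FPKM (adjusted p = 0.984).

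Beside POSTN on chromosome 1, TRPC4, a calcium channel, was at 0.682 and 0.340 FPKM, and SUPT20H, a subunit of a transcription co-activator, at 10.8 and 11.6 FPKM (adjusted p = 0.485). SMOC2 is the next protein-coding gene after THBS2 on chromosome 3, at a distance of 225331 bases. SMOC2 was called lower, while THBS2 overlapped between groups. ATIC, beside FN1, was at 15.5 and 15.8 FPKM (adjusted p = 0.898).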
